A study of Homo sapiens with 2 samples.

Results

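The miRNAs described here are 10 human microRNAs (miRNAs) whose hairpins are described as coming from Alu elements or other interspersed repeats, namely hsa-miR-1268a, hsa-miR-1268b, hsa-miR-1273g-3p, hsa-miR-1285-3p, hsa-miR-619-5p, hsa-miR-5096, hsa-miR-5095, hsa-miR-5585-3p, hsa-miR-566 and hsa-miR-1303. They were chosen by name, with earlier results of these data known, so counts of members beside all miRNAs describe a chosen list. Each had 1 probe among the 2565 miRNA probes of the array. RNA of exosomes, small vesicles that cells release, was profiled in HuH-7, a cell line of human hepatocellular carcinoma. The HuH-7-M exosome sample was compared with the HuH-7-P exosome sample, in a series on intrahepatic spread of this cancer, and the labels do not spell out M and P. Both cultures grew in DMEM with 10% fetal bovine serum and antibiotics and were moved to advanced DMEM before the medium was filtered and ultracentrifuged. There was 1 array per culture, so no difference between the cultures has a replicate, no test was possible, and every direction below describes these arrays. The extraction protocol speaks of RNA from cells, while titles and sources call the samples exosomes. In such samples a difference in the number of vesicles and one in miRNA per vesicle cannot be told apart.

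A miRNA is a short RNA that guides an Argonaute protein to messenger RNAs, mainly through its seed, the bases 2 to 8 from its 5′ end. Alu elements are primate-specific short interspersed repeats spread through introns and untranslated regions, and a pair of them in opposite orientation can fold into a hairpin. A miRNA that comes from such a hairpin resembles very many other transcripts, since Alu copies lie in a large share of human messenger RNAs. The repeat origin of the members was taken as listed and not checked here.

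Mature sequences from RefSeq (GRCh38.p14) were matched by name for 5 of the 10 miRNAs, and are shown because they set out which members share bases and a seed. The seed is in capitals.
miR-1268a: cGGGCGUGgugguggggg
miR-1268b: cGGGCGUGguggugggggug
miR-1285-3p: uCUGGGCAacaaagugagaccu
miR-5585-3p: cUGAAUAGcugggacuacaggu
miR-1303: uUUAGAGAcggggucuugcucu

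miR-1268a and miR-1268b had the same seed, and the whole 18-base miR-1268a is contained in the 20 bases of miR-1268b, so the arrays cannot be taken to separate them. Both were rich in G, with 13 G among the 18 bases of miR-1268a and 14 among the 20 of miR-1268b. The share of G and C was 83.3% in miR-1268a and 80% in miR-1268b, and 1.58% and 3.02% of the 2281 array miRNAs with a RefSeq sequence reached these shares. miR-1285-3p, miR-5585-3p and miR-1303 each had 11 G or C in 22 bases and seeds of their own. miR-1268a lies on the minus strand at chr15:22225308-22225325, and no other gene of the RefSeq table spans its locus. miR-1268b lies on the plus strand at chr17:80098831-80098850, within the span of CCDC40. miR-1285-3p is encoded at both chr2:70252933-70252954 and chr7:92204027-92204048, each on the minus strand, the second within KRIT1. miR-5585-3p lies on the plus strand at chr1:32086986-32087007, within TMEM39B, and miR-1303 on the plus strand at chr5:154685827-154685848, within LARP1. The MIR619 locus, at chr12:108836908-108837006, lies within SSH1. Exons and introns of these genes were not used here.

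Signals are spot median intensities minus the mean of the 320 BLANK spots of the array, in the scanner's intensity units. All 10 members exceeded the BLANK limit (mean plus 2 SD of the BLANK spots, with 5% left out at each end) on both arrays, against 62.1% of all miRNA probes. Spots labelled No Probe outshone the BLANK spots, and their signals averaged 22.3 ± 5.73 on HuH-7-M against 20.1 ± 7.20 on HuH-7-P (SD over 85 spots of 1 array). The stricter limit drawn from them, a signal of 31.2 on HuH-7-M against 27.2 on HuH-7-P, was exceeded on both arrays by 4 members, miR-1268a, miR-1268b, miR-1273g-3p and miR-619-5p, and by 30.8% of all miRNA probes. miR-5585-3p and miR-5095 exceeded it on HuH-7-M only, and miR-5096, miR-1285-3p, miR-1303 and miR-566 on neither array.

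Of the 10 members, 9 had the higher signal on the HuH-7-M array, and miR-566 had nearly equal signals. Counts of members here take miR-1268a and miR-1268b singly, though the arrays cannot be taken to separate them. Without scaling between the arrays, 50.4% of the 1593 miRNAs above the BLANK limit on both arrays were higher on HuH-7-M. The bright pair came first. miR-1268a had a signal of 1836 on HuH-7-M against 1012 on HuH-7-P, a log2 difference of 0.86, and ranked 57 from the top of the miRNA probes on HuH-7-M, against 80 on HuH-7-P. miR-1268b had 1092 on HuH-7-M against 681 on HuH-7-P (0.68), with a rank of 88 on HuH-7-M, against 111 on HuH-7-P. miR-1273g-3p, of a family whose members are named miR-1273a to miR-1273h, had 314 on HuH-7-M against 198 on HuH-7-P (0.67).

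**Figure D1:**
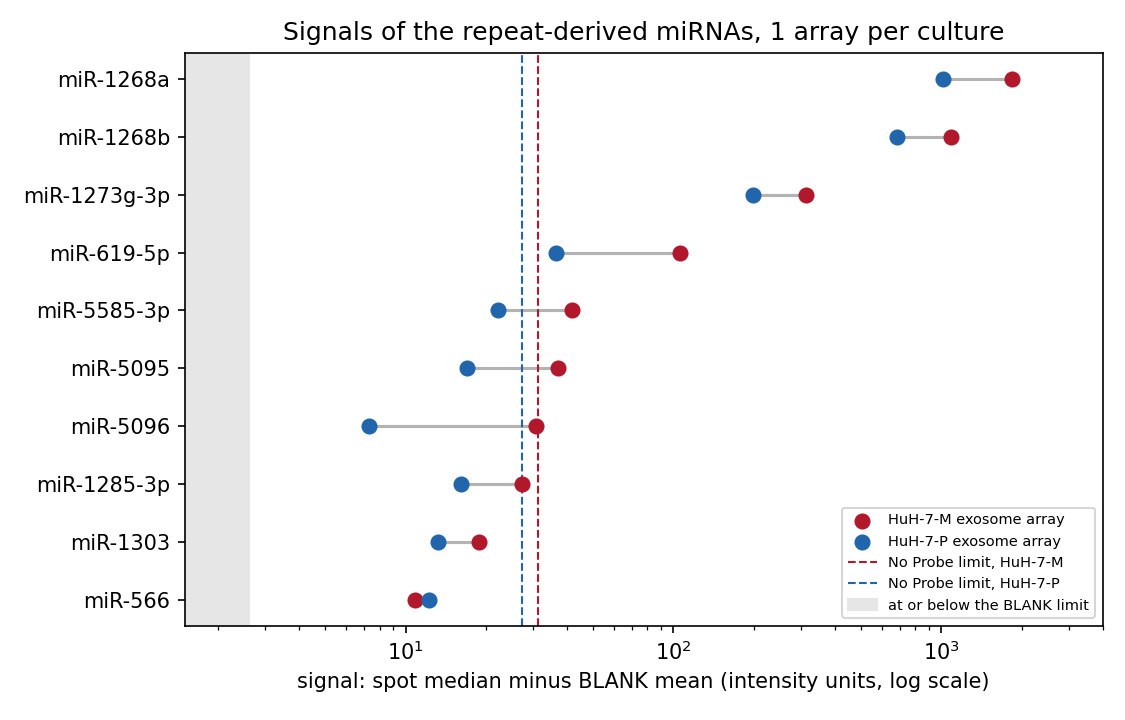
Signal of each member (horizontal axis, intensity units on a log scale) on the HuH-7-M array (red) and the HuH-7-P array (blue), 1 spot per array, with dashed lines at the No Probe limits and a grey band up to the BLANK limit. miR-1268a lies at 1836 on HuH-7-M, against 1012 on HuH-7-P, 9 of 10 members lie further right on HuH-7-M, and the 4 uppermost exceed both No Probe limits.

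miR-619-5p, known for predicted sites in a very large number of human messenger RNAs, stood furthest apart among the members clear of the No Probe limit. Its signal was 106 on HuH-7-M against 36.3 on HuH-7-P, an unscaled log2 difference of 1.54 at the 99.4th percentile of the 1593 miRNAs. miR-5096, described in glioblastoma as a miRNA that passes to neighbouring cells, had 30.6 on HuH-7-M against 7.33 on HuH-7-P (2.06, the 99.8th percentile). Both of its signals lay below the No Probe limits, and its HuH-7-P signal also lay below the mean of the No Probe spots. miR-5095 had 36.9 on HuH-7-M against 17.0 on HuH-7-P (1.12), and miR-5585-3p had 41.7 on HuH-7-M against 22.2 on HuH-7-P (0.91). For both, the HuH-7-M signal was above the No Probe limit and the HuH-7-P signal close to the No Probe mean.

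miR-1285-3p, described as a repressor of the p53 messenger RNA, had 27.3 on HuH-7-M against 16.2 on HuH-7-P, an unscaled log2 difference of 0.75. miR-1303 had 18.9 on HuH-7-M against 13.3 on HuH-7-P (0.51). miR-566, described as a repressor of VHL, had 10.9 on HuH-7-M against 12.3 on HuH-7-P (-0.18), the only member with the lower HuH-7-M signal. None of these 3 dim members reached the No Probe limit on either array, and their signals differed between the arrays by at most 11.1 intensity units.

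The gaps can be set against the spread of the No Probe spots, whose SDs on the arrays combine to 9.20 intensity units for a difference. This comparison was added after the data were seen. The measure grows with brightness, so it was read only among the 1445 measured miRNAs with a mean signal of 500 or less, which leave out miR-1268a and miR-1268b. The gap exceeded 1 such SD, with HuH-7-M higher, in 6 of the 8 members among them, against 15.4% of the 1445, and in the lower direction in 0 members, against 14.9%. For miR-619-5p it was 7.53 SD and for miR-1273g-3p 12.7 SD, and for miR-5096, miR-5095 and miR-5585-3p it was 2.53, 2.17 and 2.12 SD. miR-1285-3p had 1.21, miR-1303 0.61 and miR-566 -0.15. It covers the spread between spots of 1 array, not that between cultures or arrays.

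The size of the differences depended on the background step. With normexp background correction, an added offset of 50 and quantile normalization, used for the differences called here, 0 of the 10 members passed 2-fold with HuH-7-M higher, against 0.439% of the 1593 miRNAs, and 0 with HuH-7-M lower, against 1.76%. On that scale the log2 ratios of HuH-7-M to HuH-7-P were 0.88 for miR-619-5p, 0.60 for miR-1273g-3p and 0.50 for miR-5096. miR-1268a was at 0.48, miR-1268b at 0.46, miR-5095 at 0.39 and miR-5585-3p at 0.37. miR-1285-3p was at 0.24, miR-1303 at 0.13 and miR-566 at -0.03. Repeat spots of 24 control probes gave a spread of 0.24 for a difference of 2 single spots (SD, within array), which miR-1285-3p, miR-1303 and miR-566 did not exceed. Of the members, 9 were above 0 (3 when scaled to the Spike Control spots), against 53.9% of all, and their median was 0.42, beside 0.01 (quartiles -0.07 and 0.10) over all 1593.

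Without an offset and without scaling, 3 of the 10 passed 2-fold with HuH-7-M higher, against 3.33% of the 1593 miRNAs, and none lower, against 4.46%. They were miR-5096, miR-619-5p and miR-5095, and of these only miR-619-5p cleared the No Probe limit on each array (1 of 4 members that did so, against 3.29% of all such miRNAs). The members' median on that scale was 0.81, beside 0.00 over all. In the authors' deposited table, matched to the scanner's probes by value, the same 3 were past 2-fold, at 2.09, 1.57 and 1.15, beside 3.91% of the matched miRNAs. None was past it in the lower direction, beside 4.16%. The match rebuilt the authors' values from BLANK-subtracted signals, so this likeness was fixed by the match. In that table the values of these 3 stand under other identifiers than the scanner's. With an offset of 16 in place of 50, miR-619-5p (1.26) and miR-5096 (1.02) were past it, beside 1% of the miRNAs. The Spike Control spots had more signal on HuH-7-M, by 0.51 and 0.66 on the log2 scale. Scaled to them, the members' median was -0.15 and 3 of 10 stayed above 0 (5.65% of all), miR-619-5p at 0.27, miR-1268a at 0.25 and miR-1268b at 0.06, while the median of all miRNAs moved to -0.58. Relative to the median of all measured miRNAs, 9 of 10 members were higher in HuH-7-M on this scale. Scaling by 1 factor per array shifts all differences alike, so it cannot change that count.

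**Figure D2:**
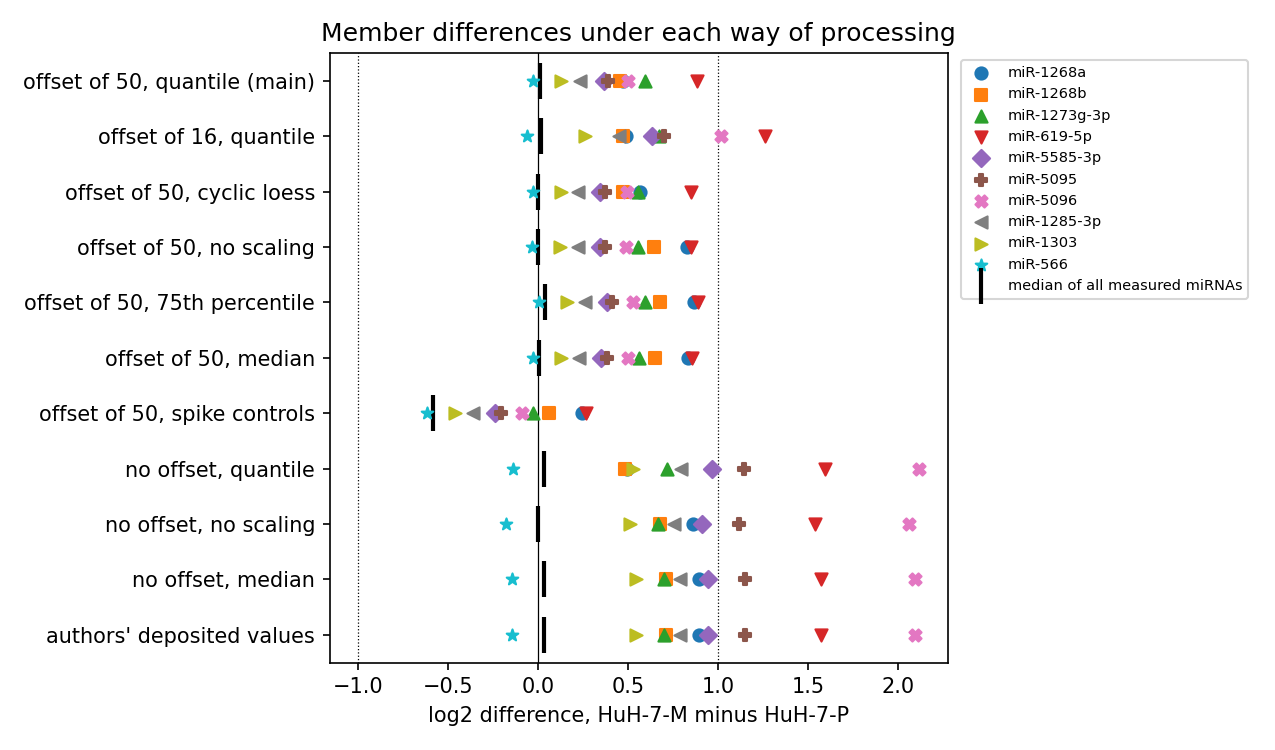
Log2 ratio of HuH-7-M to HuH-7-P (horizontal axis), of each member under 11 ways of processing the same arrays (rows), with a black bar at the median of all measured miRNAs and dotted lines at 2-fold. In each row 9 of 10 members lie right of the bar and miR-566 left of it. Rows that differ only by a scaling factor per array must hold the same count. miR-5096 and miR-619-5p pass 2-fold in the rows with an offset of 16 or none.

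Brightness moved with the differences of the bright pair. Among 148 measured miRNAs with a mean signal over 500, the median unscaled log2 difference was 0.48 (quartiles -0.02 and 0.76) and 73.0% were higher on HuH-7-M. miR-1268a, at 0.86, lay above that upper quartile and miR-1268b, at 0.68, within the quartiles. After quantile normalization the median of the same 148 was 0.04. Base composition moved with it as well. Among 67 measured miRNAs with at least 80% G and C, the median was 0.68 unscaled and 0.19 after quantile normalization, and 94.0% were higher on HuH-7-M before scaling. Across 1418 measured miRNAs with a RefSeq sequence, Spearman's rho between the share of G and C and the signal was 0.58 on HuH-7-M against 0.55 on HuH-7-P, over probes that share an array. Between that share and the log2 difference, rho was lower, 0.23 unscaled and 0.17 after quantile normalization. The part of brightness or composition in the miR-1268 values was not tested. The dimmer members stood differently. In the 965 measured miRNAs with a mean signal under 50, which hold 6 members, the median unscaled difference was -0.04 (quartiles -0.28 and 0.21), 46.2% were higher on HuH-7-M, and 5 of these 6 members were above the upper quartile.

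**Figure D3:**
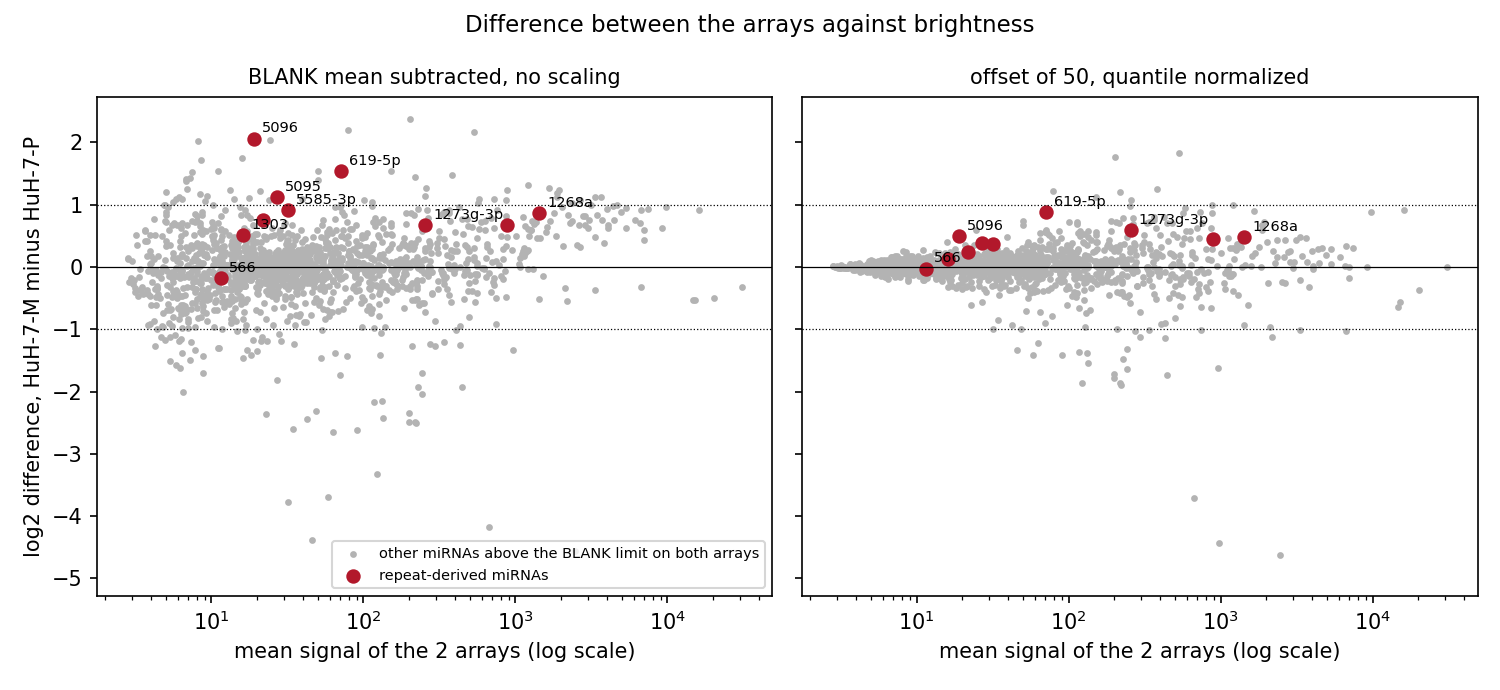
Log2 ratio of HuH-7-M to HuH-7-P (vertical axis), against the mean signal of both arrays (log scale), for the 10 members (red) and the other measured miRNAs (grey), before scaling on the left and with the offset of 50 and quantile normalization on the right. Of the members, 9 lie above 0 in both panels (3 on the Spike Control scale), and dim members are drawn toward 0 on the right, with miR-5096 at 2.06 on the left and 0.50 on the right.

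Other arms and relatives were counted from a list of 14 miRNAs, all on the array, with 11 above the BLANK limit on both arrays. Their median was 0.09 with the offset, beside 0.01 over all 1593 miRNAs, and 0.18 unscaled, beside 0.00. Unscaled, 7 of the 11 were above 0, against 50.4% of the 1593. With the offset none of the 11 was 2-fold apart. Unscaled, 1 was 2-fold higher on HuH-7-M, miR-1972, against 3.33% of the 1593, and 1 was 2-fold lower, miR-1273d, against 4.46%. miR-1273f had a signal of 151 on HuH-7-M against 76.6 on HuH-7-P (0.68 with the offset, 0.98 unscaled), and cleared the No Probe limit on each array. miR-1972, at 32.2 on HuH-7-M against 15.3 on HuH-7-P, was at 0.35 with the offset and 1.07 unscaled. miR-1273a had 20.4 on HuH-7-M against 10.4 on HuH-7-P (0.23 with the offset, 0.97 unscaled). miR-1273e and miR-1273h-5p, the others that cleared it, differed by 0.11 and 0.02 with the offset. miR-1273d was lower on HuH-7-M, at 3.57 against 9.27 on HuH-7-P (-0.14 with the offset, -1.38 unscaled). The opposite arms of the hairpins gave little signal. miR-619-3p and miR-5585-5p were not above the BLANK limit on either array, and miR-1285-5p (8.40 on HuH-7-M, 10.6 on HuH-7-P) and miR-1273g-5p (16.7 on HuH-7-M, 19.2 on HuH-7-P) were below the No Probe mean on both arrays.

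miRNAs of an older repeat, the LINE element L2, were dim. Of 8 listed probes, 3 were above the BLANK limit on both arrays, against 62.1% of all probes, and 0 above the No Probe limit, against 30.8%. The signals of these 3 lay below the No Probe mean on both arrays. Their median was 0.08 with the offset, beside 0.01 over all 1593 miRNAs, and 0.35 unscaled, beside 0.00. Unscaled, 1 of the 3, miR-28-5p, was 2-fold higher on HuH-7-M, against 3.33% of the 1593, and 0 were 2-fold lower, against 4.46%. miR-28-5p had 6.95 on HuH-7-M against 3.03 on HuH-7-P (0.11 with the offset, 1.20 unscaled), miR-708-5p 15.1 on HuH-7-M against 11.9 on HuH-7-P, and miR-151a-5p 8.49 on HuH-7-M against 9.61 on HuH-7-P.

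The 5 members with a RefSeq sequence were next compared with array miRNAs that share their bases. The members without one, miR-1273g-3p, miR-619-5p, miR-5096, miR-5095 and miR-566, were not compared. No array miRNA with a RefSeq sequence outside the members had the seed of miR-1268a, miR-5585-3p or miR-1303. The seed of miR-1285-3p was shared by 3 others, shown here because a shared seed implies overlapping predicted targets.
miR-3187-5p: cCUGGGCAgcguguggcugaagg
miR-5189-5p: uCUGGGCAcaggcggauggacagg
miR-6860: aCUGGGCAgggcuguggugagu

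miR-3187-5p had a signal of 111 on HuH-7-M against 92.8 on HuH-7-P, an unscaled log2 difference of 0.26. miR-5189-5p had 186 on HuH-7-M against 178 on HuH-7-P (0.07), and miR-6860 had 167 on HuH-7-M against 192 on HuH-7-P (-0.21). With the offset, miR-1285-3p was at 0.24, miR-3187-5p at 0.20, miR-5189-5p at 0.06 and miR-6860 at -0.15. None of these exceeded the spread of 0.24 between single spots, so no direction of this seed can be read from them. For the members with a RefSeq sequence, runs of at least 10 bases, read on both strands, were shared with 4 other array miRNAs. miR-5689 held 11 bases complementary to miR-5585-3p and was not above the BLANK limit on both arrays. miR-3176, with 10 bases in common with miR-5585-3p, had 82.2 on HuH-7-M against 115 on HuH-7-P (-0.48). miR-1298-3p, with 10 bases of miR-1285-3p, was at -0.54, and miR-769-3p, with 10 bases of miR-1303, at 0.10. The signals of miR-1298-3p and miR-769-3p lay below the No Probe mean on both arrays, so little can be read from their differences. None of miR-3176, miR-1298-3p and miR-769-3p was higher on HuH-7-M by as much as the member whose bases it shares. The part of shared bases in the members' values was not tested.

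The miRNAs nearest to miR-1268a in their pair of log2 signals were miR-6088, miR-6784-5p and miR-6805-5p, at distances of 0.12, 0.18 and 0.19, a likeness over 2 arrays only. Their unscaled differences were 0.72, 0.69 and 0.74. All 4 hepatocyte miRNAs listed were above the BLANK limit on both arrays, against 62.1% of all miRNA probes. Of these, 2, miR-122-5p and miR-885-5p, were above both No Probe limits, against 30.8% of all. The summed signals of the 4 were 140 on HuH-7-M against 111 on HuH-7-P. miR-122-5p, the main hepatocyte miRNA, had 67.7 on HuH-7-M against 40.0 on HuH-7-P (0.76 unscaled). miR-885-5p was at 0.31, miR-192-5p at -0.21 and miR-194-5p at -0.35. Of 5 blood-cell miRNAs, 4 were above the BLANK limit on both arrays, against the same 62.1%, and 0 above both No Probe limits, against 30.8%. Their sums were 48.8 on HuH-7-M against 55.1 on HuH-7-P, and miR-142-3p was at or below BLANK on both arrays. The part of the hepatocyte and blood-cell miRNAs in the members' values was not tested.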

How the data were processed

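Per the labels' protocols, RNA was labelled with Cy5 with the 3D-Gene miRNA labelling kit and hybridised to 1 array per culture. The authors deposited scanner output with a spot median intensity per spot, without background subtraction, for 3200 spots per array, of which 2565 are miRNA probes. The authors also deposited a table of scaled intensity values, which were matched to scanner probes by rebuilding them to a relative tolerance of 1e-05. All 10 members were matched, but only 4 carry the scanner's identifier in that table, miR-1268a, miR-1285-3p, miR-1303 and miR-566. The identity of the other 6 rests on the scanner's names, used throughout.

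Differences used normexp fitted on the BLANK spots (the nec function of limma 3.58.1 under R 4.3.3), an offset of 50 and quantile normalization of the miRNA probes before taking log2, and a log2 size of 1 was called. Signals without a scale are spot medians minus the BLANK mean. An offset shrinks log2 differences of dim probes. Measured means above the BLANK limit on both arrays. No p-value was computed, and the number of arrays limits the precision. The labels name no batch. Steps were run on simulated data, and no value given here rests on that run. All members were named, together with the listed relatives, up to 8 miRNAs sharing runs of bases, and the 3 nearest in signal. Members and lists were chosen with earlier results of these data known. Array names and RefSeq sequences (GRCh38.p14) were matched by name, for 5 of 10 members.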

Additional observations from a re-analysis of the deposited data

How the results depend on the processing

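No member was at least 2-fold higher with the offset of 50 under any scaling tried, and none was at least 2-fold lower under any setting. With that offset, the share of the 1593 measured miRNAs at least 2-fold higher ran from 0.126% (Spike Control scaling) to 1.44% (75th percentile). The share at least 2-fold lower ran from 1.38% (offset of 50, 75th percentile) to 4.71% (no offset, quantile). With an offset of 16, 2 were at least 2-fold higher. Subtracting the BLANK mean without any offset, 3 were, under quantile normalization, median scaling and no scaling alike, and 3 were in the authors' deposited table. The authors' values were matched by rebuilding a median scaling, so that last count is not a separate result. The members' median difference of 0.42 became 0.75 (quantile), 0.84 (median scaling), 0.81 (no scaling) and 0.84 (authors' deposited table) without an offset, and -0.15 on the Spike Control scale, where the median of all measured miRNAs was -0.58. An offset pulls dim differences toward 0 by its construction. Under the No Probe limit 4 members remained. With no offset or scaling, 1 of them was at least 2-fold higher, beside 3.29% of the 790 miRNAs above that limit on both arrays. The median of these 4 members was 0.77 in that setting, which was chosen after seeing the data. Of 118 values of single members under the alternatives, 71 moved by less than the spot spread of 0.24 and 47 by more. The 71 include values for which only the limit or filter changed, which keep the main difference and could not move. miR-566 turned from -0.03 to 0.00 after scaling to the 75th percentile. Signal over background limits the 6 members below the No Probe limit on 1 or both arrays. No paired analysis was possible because each culture had 1 array.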
